A study of Mus musculus with 8 samples.

Results

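A set of 10 genes that mark B1 cells or atypical memory B cells were followed in follicular B cells sorted from mouse spleen by a gate for B220, CD93, CD21 and CD23: Tbx21, Zbtb32, Arid3a, Bhlhe40, Bhlhe41, Cd5, Spn, Ctla4, Ahnak and Pstpip2. They were chosen by symbol, and each matched 1 of the 43629 Ensembl genes in the count table, so 10 of 10 were found. RNA was sequenced from 8 libraries, 4 per group. The GFP-ZFP36L1 group carried Rosa26GFPZFP36L1 together with CD23cre/+, a Cre driven from the gene for CD23, which is switched on as B cells mature. The control group carried Rosa26GFPZFP36L1 and no Cre in its label, although the series title calls these cells WT. Cre and the expression of the tagged protein therefore cannot be told apart. Strain, age, sex and the number of animals behind a library are not given in the labels, so p-values measure only the spread between these libraries, which may be technical.

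B1 cells are the self-renewing B cells of the body cavities, which secrete natural IgM, and follicular B cells are the recirculating cells that respond with help from T cells. Atypical or age-associated memory B cells are the B cells that depend on T-bet, often carry CD11c, and accumulate with age, chronic infection and autoimmunity. ZFP36L1 is an RNA-binding protein that recognises UAUUUAU-like elements in 3′ UTRs and promotes decay of the mRNAs that hold them.

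Totals ran from 38947758 to 48328512 counts in GFP-ZFP36L1 libraries and from 40976668 to 51024233 in control libraries. Follicular markers were abundant, with a summed level of 15489 to 17696 CPM (counts per 1000000, on TMM-scaled library sizes) in GFP-ZFP36L1 libraries and 17884 to 19088 CPM in control libraries over 9 genes. As a check of the labels, Zfp36l1 ran opposite to added expression. It averaged 439 ± 28.6 CPM in the libraries labelled GFP-ZFP36L1, below the 547 ± 35.1 CPM of control libraries (SD, n = 4 each). The count table does not separate the transcript of the allele from that of the endogenous gene, so this level cannot decide the label. Gt(ROSA)26Sor is the noncoding gene of the locus that carries the allele. It averaged 3.90 ± 0.604 CPM in GFP-ZFP36L1 libraries, against 16.9 ± 2.58 CPM in controls. The ranges, 3.17 to 4.46 and 13.6 to 19.9 CPM, did not overlap (adjusted p 4.14e-05 by edgeR's quasi-likelihood test). At this gene the libraries separated by label. The first principal component (37.3% of variance) placed GFP-ZFP36L1 replicate 1 at -7.54, inside the control range of -23.1 to -3.26. The other GFP-ZFP36L1 libraries lay from 7.38 to 33.01. Results that rest on replicate 1 are given below with and without it.

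Because ZFP36L1 acts through AU-rich elements, the 3′ UTR of each gene was searched on the sense strand for TATTTAT, the DNA letters of UAUUUAU, in the longest annotated 3′ UTR of GENCODE M21 (GRCm38). Of the 10 genes, only Tbx21 held the heptamer, against 27.5% of 20779 genes with a 3′ UTR. Its 1 copy began at position 622 of a 3′ UTR of 701 nt. The shorter core ATTTA, which lies inside the heptamer, was present in 7 of the 10 genes and in 65.8% of all genes with a 3′ UTR. Arid3a sites 2 and 3 begin at positions 3001 and 3018 of its 3′ UTR, so their windows overlap. The sites of the 4 genes with the smallest p in the genotype comparison are shown 5′ to 3′, with the motif in capitals. The single heptamer can thus be set beside the pentamers of the other genes.
Tbx21: aggggggaggcTATTTATtgtagagagtg
Zbtb32: cggcctggcaaATTTAaccacagaaga
Arid3a site 1: tggagaaacagATTTAataaatcaggg
Arid3a site 2: ttgtggattgtATTTAaacctcagaaa
Arid3a site 3: acctcagaaatATTTAacgggcttgta
Spn site 1: aagataggacaATTTAggtgatggctg
Spn site 2: aaacgtggggaATTTAagtgtgatttt

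The Tbx21 window spans chr11:97098133-97098161 on the minus strand, and the Zbtb32 window spans chr7:30589833-30589859 on the minus strand. Arid3a holds its 3 pentamers in 3082 nt and Spn its 2 in 2444 nt. Bhlhe41, with the longest 3′ UTR of the set at 4609 nt, held 10 pentamers and no heptamer. Cd5, Bhlhe40 and Ahnak held neither motif in 1483, 1593 and 872 nt. A match describes these letters and does not show binding.

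The genotype comparison asked how these genes differ between follicular B cells labelled as carrying GFP-ZFP36L1 with CD23cre and control cells. Tbx21, Zbtb32, Spn, Cd5, Pstpip2 and Bhlhe41 had negative log2 fold changes, and Arid3a, Bhlhe40 and Ahnak had positive ones. None of the 9 genes that passed the filter on low counts was called by edgeR's quasi-likelihood test (Benjamini-Hochberg adjusted p under 0.05 over all genes), where 3.12% of 13035 tested genes were called, 1.83% higher and 1.30% lower. At an unadjusted p under 0.05 there were 5, namely Tbx21, Zbtb32, Arid3a, Spn and Bhlhe40, against 17.3% of all tested genes. DESeq2 called 2 of them, Tbx21 and Spn, against 6.63% of genes with an adjusted p in that tool. Limma voom called 3, Arid3a, Spn and Zbtb32, against 8.08% of genes. The median log2 fold change was -0.35 over the 9 genes and -0.0067 over all tested genes. These are bulk libraries, in which fewer cells of a type and less RNA per cell cannot be told apart.

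**Figure D1:**
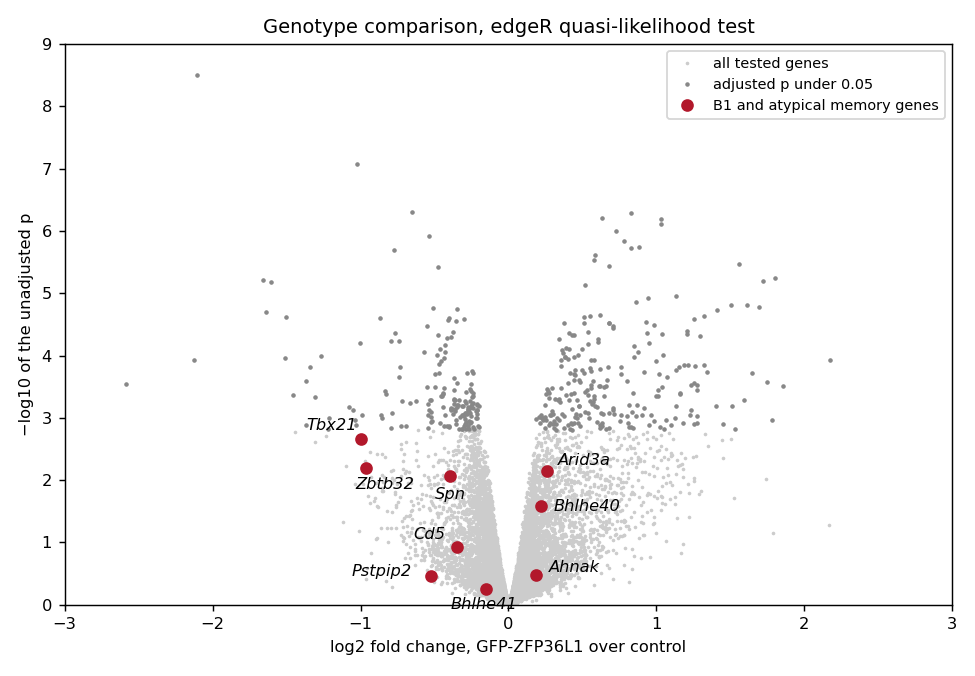
Each point is 1 of 13035 tested genes, with the log2 fold change of GFP-ZFP36L1 over control on the x axis and −log10 of the unadjusted p from edgeR's quasi-likelihood test on the y axis. The 9 tested B1 and atypical memory genes are in red and all lie below the darker points, which are the 407 genes called at an adjusted p under 0.05; Tbx21 and Zbtb32 lie farthest to the left, near a log2 fold change of -1.

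Tbx21 encodes T-bet, the T-box factor that defines atypical memory B cells and drives interferon-gamma programmes in T cells. It had 1.89, 1.36, 1.31 and 0.901 CPM in GFP-ZFP36L1 replicates 1 to 4, against 3.82, 2.70, 1.74 and 2.70 CPM in control replicates 1 to 4. GFP-ZFP36L1 replicates 2, 3 and 4 lay below every control, and replicate 1 lay above control replicate 3, so the groups overlapped by 1 library on each side. The mean was 1.36 ± 0.405 CPM in GFP-ZFP36L1 libraries and 2.74 ± 0.852 CPM in control libraries (SD, n = 4 each). The log2 fold change was -1.0 ± 0.26 (SE), adjusted p 0.0589 by the edgeR test. This was the smallest p of the set, and 3.64% of all tested genes had a smaller one. Without GFP-ZFP36L1 replicate 1 the log2 fold change was -1.19 with an adjusted p of 0.0236 in the same test, and with any other single library left out the adjusted p lay between 0.0579 and 0.159. In the authors' deposited table Tbx21 has a log2 fold change of -0.44 and an adjusted p of 0.00456, where 6.63% of genes with an adjusted p pass. DESeq2 as run here gave -1.0 at nearly the same adjusted p, 0.00465. The deposited log2 fold change is therefore not compared in size with those given here.

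Zbtb32, a zinc finger repressor that limits recall responses of memory B cells, had 0.737, 0.493, 0.346 and 0.268 CPM in GFP-ZFP36L1 replicates 1 to 4. Control replicates 1 to 4 had 0.979, 0.805, 0.737 and 1.106 CPM. Zbtb32 was the 1 gene of the 9 whose groups did not overlap, against 11.2% of all tested genes, and the gap was narrow: the highest GFP-ZFP36L1 library had 0.7368 and the lowest control 0.7375 CPM, from 32 and 31 counts. Its log2 fold change was -0.96 ± 0.29 (SE), adjusted p 0.103 by the edgeR test. Without GFP-ZFP36L1 replicate 1 it was -1.26, with an adjusted p of 0.0220 in that test. The gene rests on 239 counts over the 8 libraries.

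Arid3a, an AT-rich DNA-binding factor first known for binding the immunoglobulin heavy chain locus, ran the other way. It had 37.4, 41.2, 45.5 and 48.4 CPM in GFP-ZFP36L1 replicates 1 to 4 and 33.9, 38.0, 34.8 and 37.6 CPM in control replicates 1 to 4. Only GFP-ZFP36L1 replicate 1 lay inside the control range. The log2 fold change was 0.26 ± 0.08 (SE), adjusted p 0.109 by the edgeR test, and 0.33 with an adjusted p of 0.0207 without GFP-ZFP36L1 replicate 1. Its paralog Arid3b fell, at 118.1 to 119.5 CPM in GFP-ZFP36L1 libraries against 140 to 151 CPM in control libraries. For Arid3b the log2 fold change was -0.30 ± 0.04 (SE) and the adjusted p 0.00805. Btk, a kinase reported to act with ARID3A, had 356 ± 11.8 CPM in GFP-ZFP36L1 libraries and 369 ± 5.63 CPM in control libraries.

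Bhlhe40 and Bhlhe41 are paralogous basic helix-loop-helix repressors of E-box genes, and Bhlhe41, partly together with Bhlhe40, is needed for B1a cells in mice. Bhlhe40 had 29.7, 32.7, 26.3 and 29.7 CPM in GFP-ZFP36L1 replicates 1 to 4 and 29.5, 24.0, 24.3 and 24.1 CPM in control replicates 1 to 4. Control replicate 1 stood above the other controls and inside the GFP-ZFP36L1 range. The log2 fold change was 0.22 ± 0.08 (SE), adjusted p 0.206 by the edgeR test. Bhlhe41 had 1.73, 1.602, 2.74 and 2.90 CPM in GFP-ZFP36L1 replicates 1 to 4 and 1.599, 2.19, 2.81 and 3.34 CPM in control replicates 1 to 4. The 2 ranges nearly coincided, and the log2 fold change of -0.15 ± 0.25 (SE, adjusted p 0.814 in the same test) changed sign to 0.02 without control replicate 4. Per length of exon, Bhlhe40 exceeded Bhlhe41 by 13.7 to 29.1 times in GFP-ZFP36L1 libraries and by 10.3 to 26.3 times in control libraries. Among 12 tested clock genes with E-boxes, on which both repressors act, none was called by edgeR or DESeq2. Limma voom called 1, against 8.08% of all tested genes, and 1 had an unadjusted p under 0.05, against 17.3%. The gene of smallest p, Arntl, which encodes the clock activator BMAL1, had 33.6 ± 2.84 CPM in GFP-ZFP36L1 libraries and 38.3 ± 0.959 CPM in control libraries. Promoters were searched in RefSeq windows from 250 bases before to 50 after the start (GRCm38.p6) for the 7 of the 10 genes that had an entry. Bhlhe40, Arid3a and Pstpip2 were not searched. The palindromic E-box CACGTG was found in 1 of these 7, Bhlhe41, against 8.09% of 27025 genes with a window. It is shown in capitals, 153 bases before the RefSeq start, at chr6:145865556-145865585 on the minus strand, because E-boxes are the element this protein family binds. In the gene annotation used for the 3′ UTRs, Bhlhe41 begins at chr6:145865558, inside this window, so the distance depends on the start chosen.
Bhlhe41: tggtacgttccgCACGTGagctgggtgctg

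An exonic stretch of 1280 bases of Bhlhe41 lies opposite the annotated gene Gm43909, and 118 bases of Bhlhe40 lie opposite 0610040F04Rik. Pstpip2 shares 206 exonic bases in the same way with F830208F22Rik. Whether counting used the strand is not stated, so reads from these partners may be included.

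**Figure D2:**
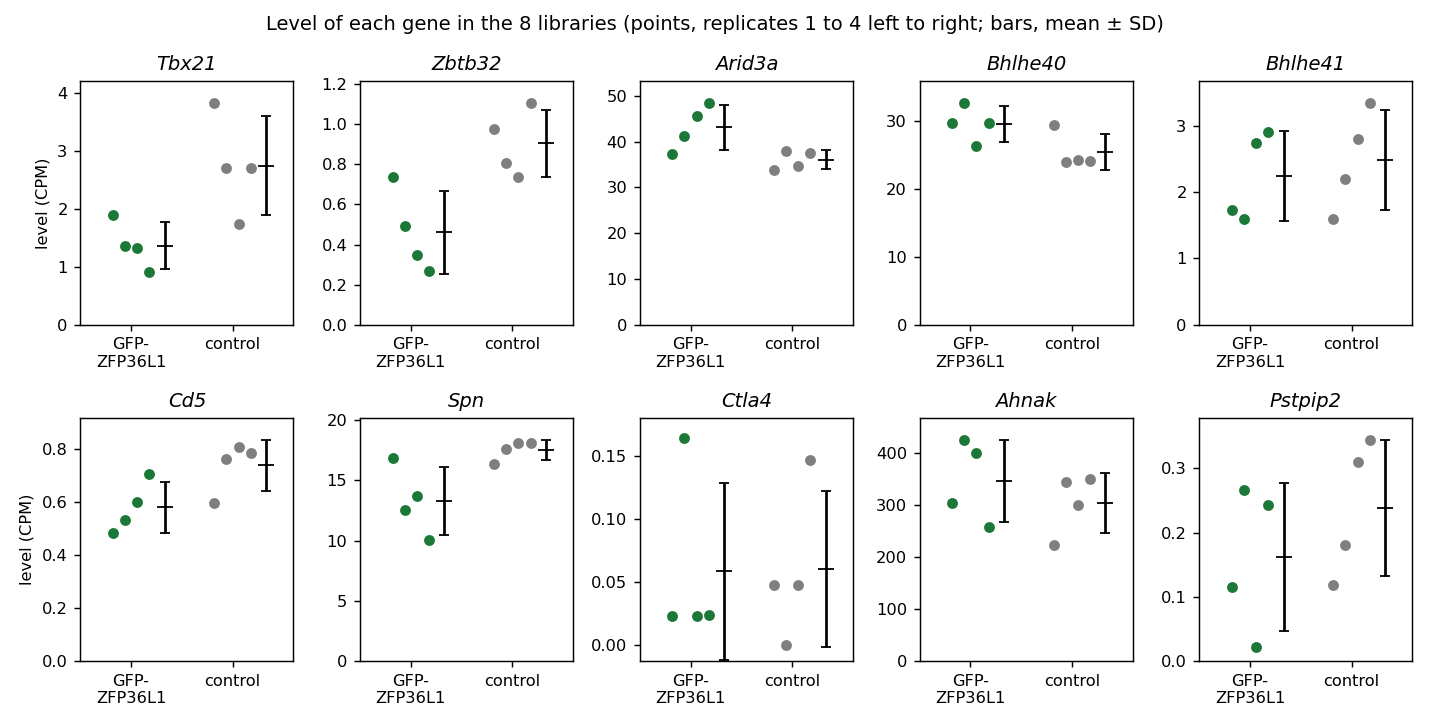
Level in CPM (y axis, linear) of each of the 10 genes in GFP-ZFP36L1 (left, green) and control (right, grey) libraries, with 1 point per library and the mean ± SD beside it. Tbx21, Zbtb32 and Spn sit lower and Arid3a higher in most GFP-ZFP36L1 libraries, while Bhlhe41, Ahnak, Pstpip2 and Ctla4 share their range between the groups.

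The surface proteins followed. Spn encodes CD43, the sialomucin that separates B1 from other resting B cells. It had 16.8, 12.6, 13.7 and 10.1 CPM in GFP-ZFP36L1 replicates 1 to 4 and 16.3, 17.6, 18.1 and 18.1 CPM in control replicates 1 to 4. Replicate 1 lay among the controls and the other GFP-ZFP36L1 libraries below all of them. The log2 fold change was -0.40 ± 0.13 (SE), adjusted p 0.118 by the edgeR test, and -0.52 with an adjusted p of 0.0135 without GFP-ZFP36L1 replicate 1. In the authors' deposited table Spn has a log2 fold change of -0.30 and an adjusted p of 0.0436, where DESeq2 as run here gave -0.40 and 0.0443. The coefficient of variation of Spn was 21.05% in GFP-ZFP36L1 libraries and 4.75% in control libraries. None of the 5 tested genes for CD43's cytoskeletal partners and fellow mucin-like or adhesion proteins was called by edgeR, DESeq2 or limma voom, and 0 had an unadjusted p under 0.05. Among them Cd44 had the smallest p, at 68.3 ± 8.26 CPM in GFP-ZFP36L1 libraries and 74.8 ± 5.13 CPM in control libraries.

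Cd5 encodes the inhibitory scavenger receptor that defines B1a cells, and it was near the floor of detection. It had 0.484, 0.534, 0.600 and 0.707 CPM in GFP-ZFP36L1 replicates 1 to 4 and 0.597, 0.764, 0.809 and 0.786 CPM in control replicates 1 to 4, from 21 to 38 counts per library. The ranges overlapped, and the log2 fold change was -0.35 ± 0.21 (SE), adjusted p 0.424 by the edgeR test. Of 10 other tested genes for inhibitory receptors and phosphatases of B cells, 1, Pecam1, fell, 0 rose and 9 did not pass, where 3.12% of all tested genes were called. Negative log2 fold changes were held by 9 of the 10, by 8 of 9 follicular markers and by 6794 of 13035 tested genes. The median was -0.11 in the inhibitory list and -0.21 over the follicular markers. EdgeR called 1 of the 9 follicular markers, which fell, against 3.12% of all tested genes. DESeq2 and limma voom each called 4, against 6.63% and 8.08% of genes. Among the 9, 5 had an unadjusted p under 0.05, against 17.3% of all tested genes. Pecam1, an inhibitory adhesion receptor, had 214 to 248 CPM in GFP-ZFP36L1 libraries and 266 to 289 CPM in control libraries. Its log2 fold change was -0.25 ± 0.06 (SE), adjusted p 0.0451 by the edgeR test. Leaving out any library but GFP-ZFP36L1 replicate 1 ended that call, at adjusted p from 0.0551 to 0.144, and with upper-quartile factors, at 0.0570.

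Ctla4 encodes the inhibitory receptor that binds CD80 and CD86, and it is carried by B1a cells in mice as well as by T cells. It had 1, 8, 1 and 1 counts in GFP-ZFP36L1 replicates 1 to 4 and 2, 0, 2 and 6 counts in control replicates 1 to 4. With 21 counts in all it did not pass the filter and was not tested, and no difference was detectable at this depth. Of the 5 tested genes for its costimulation partners, none was called by edgeR, DESeq2 or limma voom. An unadjusted p under 0.05 was reached by 2 of them, against 17.3% of all tested genes. Cd274, which encodes the checkpoint ligand PD-L1, had the smallest p, at 74.7 ± 5.98 CPM in GFP-ZFP36L1 libraries and 65.5 ± 2.21 CPM in control libraries.

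Ahnak, a giant scaffold protein of the membrane skeleton, had 303, 424, 399 and 257 CPM in GFP-ZFP36L1 replicates 1 to 4 and 224, 344, 299 and 349 CPM in control replicates 1 to 4. The groups overlapped over most of their range, and the log2 fold change was 0.19 ± 0.18 (SE), adjusted p 0.668 by the edgeR test. Of 5 tested genes for AHNAK's partners, 2 rose, 0 fell and 3 did not pass, where 3.12% of all tested genes were called. Capn2, a calcium-dependent protease, had 30.2, 33.02, 34.3 and 41.0 CPM in GFP-ZFP36L1 replicates 1 to 4 and 19.1 to 21.5 CPM in control libraries. Its log2 fold change was 0.78 ± 0.09 (SE), adjusted p 0.00188 in that test, and the call held under all 18 alternatives. Myof, encoding the membrane-repair protein myoferlin, rose to 36.8 to 77.7 CPM in GFP-ZFP36L1 libraries, against 19.1 to 25.0 CPM in control libraries, with an adjusted p of 0.0254 in the same test. Its call was lost with no filter (adjusted p 0.0664) or without any 1 control (0.0674 to 0.0880). Myof is also a marginal zone marker. The summed level of 7 such markers was 708 to 786 CPM in GFP-ZFP36L1 libraries and 619 to 704 CPM in control libraries. That sum includes Myof itself, so it is not separate information on Myof. Of the 7, 5 had positive and 2 negative log2 fold changes, and Myof was the 1 called by edgeR. DESeq2 and limma voom each called 2, against 6.63% and 8.08% of genes. Among the 7, 3 had an unadjusted p under 0.05, against 17.3% of all tested genes. Plac8, the most abundant, had 243 ± 7.57 CPM in GFP-ZFP36L1 libraries and 244 ± 10.7 CPM in control libraries. The part of marginal zone cells in these values was not tested.

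Pstpip2, a membrane-bending adaptor that restrains inflammation in myeloid cells, had 5, 13, 1 and 10 counts in GFP-ZFP36L1 replicates 1 to 4 and 5, 9, 13 and 14 counts in control replicates 1 to 4. The log2 fold change was -0.52 ± 0.53 (SE), adjusted p 0.676 by the edgeR test, and the error exceeded the estimate. The value ranged from -1.45 with limma voom to -0.17 without GFP-ZFP36L1 replicate 3. Of 5 tested genes for PSTPIP partners none was called by edgeR, DESeq2 or limma voom, and 0 had an unadjusted p under 0.05. Csk, a kinase that restrains Src family kinases, had the smallest p, at 558 ± 40.6 CPM in GFP-ZFP36L1 libraries and 615 ± 23.0 CPM in control libraries.

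Compared per kb of exon, the genes spanned a wide range. In GFP-ZFP36L1 libraries the order was Ahnak at 17.3 ± 3.96, Arid3a at 7.75 ± 0.870, Bhlhe40 at 6.29 ± 0.553, Spn at 2.84 ± 0.598 and Tbx21 at 0.549 ± 0.163 CPM per kb. Bhlhe41, Zbtb32, Cd5, Pstpip2 and Ctla4 followed at 0.334 ± 0.100, 0.196 ± 0.0875, 0.118 ± 0.0195, 0.0693 ± 0.0488 and 0.0252 ± 0.0302 CPM per kb. In control libraries the order was the same except that Zbtb32, at 0.385 ± 0.0709 CPM per kb, stood just above Bhlhe41, at 0.370 ± 0.112 CPM per kb. Neighbours whose libraries overlapped in both groups were Arid3a with Bhlhe40, Bhlhe41 with Zbtb32, Cd5 with Pstpip2, and Pstpip2 with Ctla4. Tbx21 overlapped Bhlhe41 in GFP-ZFP36L1 libraries, while in control libraries it lay above its next neighbour Zbtb32 without overlap. Zbtb32 overlapped Cd5 in GFP-ZFP36L1 libraries, while in control libraries Bhlhe41 lay above Cd5 without overlap.

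**Figure D3:**
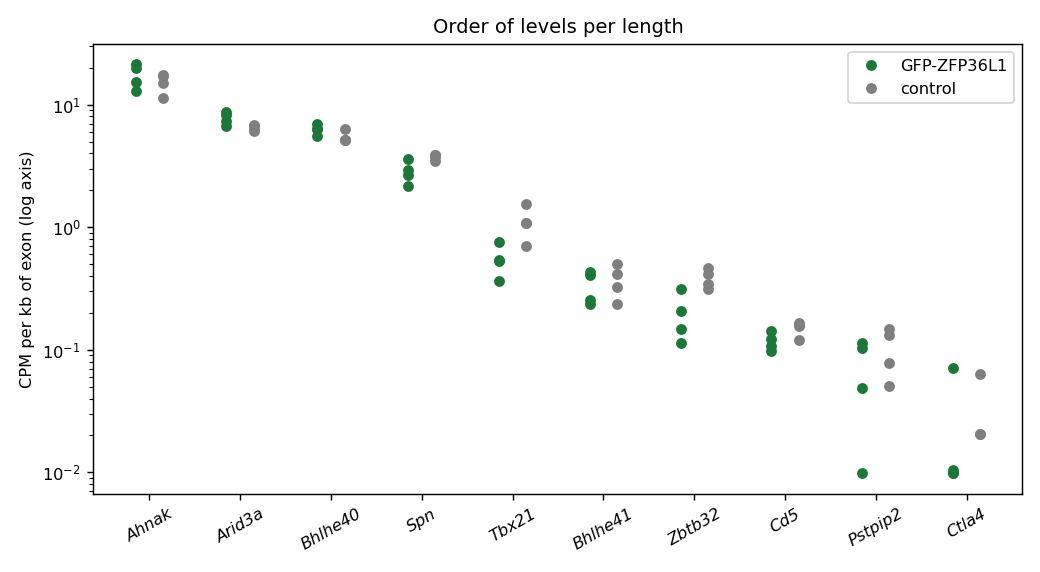
Level of each gene in CPM per kb of exon on a log axis, with 1 point per library, GFP-ZFP36L1 left in green and control right in grey; a library at 0 counts of Ctla4 is not drawn. Ahnak, Arid3a, Bhlhe40 and Spn lie above every library of the other 6 genes.

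Other genes of the B1 programme moved in both directions. Of 12 tested, 2 rose, 1 fell and 9 did not pass, where 3.12% of all tested genes were called, 1.83% higher and 1.30% lower. The median log2 fold change of the 12 was -0.02. Ccr1, a chemokine receptor, had 6.61, 6.84, 4.77 and 9.65 CPM in GFP-ZFP36L1 replicates 1 to 4 and 3.77, 2.80, 3.45 and 3.73 CPM in control replicates 1 to 4. Its adjusted p was 0.0196 by the edgeR test, and 0.0503 to 0.0723 without control replicate 2, 3 or 4. Itgam, encoding the integrin CD11b carried by B1 cells of the body cavities, had 2.62, 4.03, 2.95 and 4.02 CPM in GFP-ZFP36L1 replicates 1 to 4 and 2.27, 1.49, 2.09 and 1.99 CPM in control replicates 1 to 4. Its adjusted p was 0.0395 in the same test, and it lay between 0.0532 and 0.120 without any library other than GFP-ZFP36L1 replicate 1. Il5ra, the receptor chain for the cytokine IL-5 that sustains B1 cells, fell to 24.9, 23.6, 24.7 and 21.2 CPM in GFP-ZFP36L1 replicates 1 to 4, against 25.5, 34.3, 34.7 and 34.0 CPM in control replicates 1 to 4. Its log2 fold change was -0.45 ± 0.10 (SE), adjusted p 0.0354 in the same test. Leaving out control replicate 2, 3 or 4 or GFP-ZFP36L1 replicate 2, 3 or 4 gave 0.0719 to 0.122. The 4 segments of antibodies to phosphatidylcholine that B1a cells favour in mice (Ighv11-2, Ighv12-3, Igkv14-126 and Igkv4-91) summed to 39.2 to 53.2 CPM in GFP-ZFP36L1 libraries and 48.1 to 52.4 CPM in control libraries. None of them was called by edgeR, DESeq2 or limma voom, and 0 had an unadjusted p under 0.05. The smallest p was that of Igkv4-91, at 23.4 ± 4.39 CPM in GFP-ZFP36L1 libraries and 26.8 ± 1.49 CPM in control libraries.

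Among other genes of atypical memory B cells, 1 of 11 tested rose, Itgam, and 1 fell, Cxcr3, against 3.12% of all tested genes called. The other 9 did not pass, and the median log2 fold change of the 11 was -0.0025. Cxcr3, a chemokine receptor activated by T-bet, had 3, 1, 10 and 2 counts in GFP-ZFP36L1 replicates 1 to 4 and 33, 19, 17 and 28 counts in control replicates 1 to 4. It averaged 0.0922 ± 0.0944 CPM in GFP-ZFP36L1 libraries and 0.566 ± 0.203 CPM in control libraries (SD, n = 4 each). Its log2 fold change was -2.59 ± 0.51 (SE), adjusted p 0.0246 by the edgeR test. Without GFP-ZFP36L1 replicate 3, the library with 10 counts, it was -3.56. The adjusted p was 0.0529 to 0.0649 when control replicate 1, 3 or 4 or GFP-ZFP36L1 replicate 2 was left out. Cxcr3 was also the 1 called gene among 10 tested inducers and targets of T-bet, of which 0 rose and 9 did not pass. An unadjusted p under 0.05 was reached by 7, in both directions, against the 17.3% of all tested genes given above. Of the 10, 5 had positive and 5 negative log2 fold changes, with a median of -0.0047. Of the inducers, Tlr7, a sensor of single-stranded RNA, had 113 ± 24.4 CPM in GFP-ZFP36L1 libraries and 79.3 ± 11.6 CPM in control libraries, adjusted p 0.118 in the same test. Itgax, encoding CD11c and a defining gene of these cells, had 0.205 ± 0.0531 CPM in GFP-ZFP36L1 libraries and 0.213 ± 0.0650 CPM in control libraries and did not pass the filter. In the ZBTB32 list, which holds the MHC class II genes and their activator, none of 6 genes was called by edgeR or DESeq2. Limma voom called 1, against 8.08% of all tested genes, and 2 had an unadjusted p under 0.05, against 17.3%. Prdm1, encoding the plasma cell factor Blimp-1, had the smallest p there, at 2.25 ± 0.461 CPM in GFP-ZFP36L1 libraries and 1.49 ± 0.265 CPM in control libraries.

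Tbx21, Cd5, Spn and Ctla4 are also T cell genes, and Tbx21 is a gene of NK cells. Cd3e, part of the T cell receptor complex, had 0, 1, 0 and 2 counts in GFP-ZFP36L1 replicates 1 to 4 and 0 counts in each control library, where a count of 0 allows up to 3. Over 16 T cell markers the summed level was 37.8 to 40.5 CPM in GFP-ZFP36L1 libraries and 34.5 to 38.9 CPM in control libraries. Most of it was Lck, at 34.0 ± 0.431 CPM in GFP-ZFP36L1 libraries and 32.5 ± 1.27 CPM in control libraries, and 13 of the 16 did not pass the filter. The 3 tested T cell markers had positive log2 fold changes, and 1 had an unadjusted p under 0.05, against 17.3% of all tested genes. Limma voom called 1, against 8.08%, and edgeR and DESeq2 called none. Of 8 NK cell markers, Ncr1, Nkg7, Gzma and Gzmb had 0 counts in all 8 libraries. The list summed to 2.42 to 4.24 CPM in GFP-ZFP36L1 libraries and 2.47 to 3.16 CPM in control libraries. Of the 3 tested NK cell markers none was called by edgeR, DESeq2 or limma voom, and 0 had an unadjusted p under 0.05. The 10 myeloid markers, which bear on Itgam and Pstpip2, summed to 6.01 to 6.53 CPM in GFP-ZFP36L1 libraries and 7.89 to 9.12 CPM in control libraries, with Ly6g at 0 counts. Adgre1 had 1.73 ± 0.650 CPM in GFP-ZFP36L1 libraries and 3.21 ± 0.574 CPM in control libraries, without overlap. Cd68, the most abundant, had 3.30 ± 0.578 and 4.10 ± 0.638 CPM. Of the 4 tested, 3 had negative log2 fold changes and 1 a positive one. EdgeR called none of the 10 myeloid markers, while DESeq2 and limma voom each called 1, against 6.63% and 8.08% of all genes tested in each. An unadjusted p under 0.05 was reached by 1, against 17.3% of all tested genes. The 7 dendritic cell markers summed to 87.2 to 143 CPM in GFP-ZFP36L1 libraries and 102 to 128 CPM in control libraries. Cst3 made up most of it, at 108 ± 23.4 and 105 ± 12.4 CPM in the same order. The 6 plasma cell markers, with Tnfrsf17 at 0 counts, summed to 322 to 352 CPM in GFP-ZFP36L1 libraries and 307 to 326 CPM in control libraries. The 7 erythroid and platelet markers summed to 5.204 to 13.8 CPM in GFP-ZFP36L1 libraries and 6.16 to 16.1 CPM in control libraries. EdgeR called no gene of these 3 lists. Limma voom called 1 dendritic cell marker and DESeq2 called 1 plasma cell marker, against the shares of 8.08% and 6.63%. The counts at an unadjusted p under 0.05 were 1 for dendritic cells, 3 for plasma cells and 0 for erythroid cells and platelets, against 17.3% of all tested genes. The part of such cells in the values above was not tested.

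The number in the sample titles, 1 to 8, alternates between control and GFP-ZFP36L1 libraries, and the labels do not say what it stands for. As a linear term beside group in the edgeR fit it was called for 3 of the 9 genes, against 20.8% of all tested genes. Bhlhe41 rose by 0.16 ± 0.03 on the log2 scale per number (SE, adjusted p 0.00321), Arid3a by 0.04 ± 0.01 (adjusted p 0.0325), and Tbx21 had a slope of -0.13 ± 0.04 (adjusted p 0.0349). With this term in the fit, 4 of the 9 genes were called between the genotypes, against 7.90% of all tested genes. Tbx21 and Zbtb32 fell, with log2 fold changes of -0.89 and -0.91 and adjusted p of 0.00895 and 0.0483, and Arid3a and Bhlhe40 rose, by 0.21 and 0.25 with 0.0318 and 0.0428. With 1 surrogate variable in place of the number, Tbx21, Zbtb32 and Arid3a were called, against 9.54% of all tested genes. Without GFP-ZFP36L1 replicate 1, the 4 called genes were Tbx21, Zbtb32, Spn and Arid3a, against 7.19% of all tested genes. With no filter on low counts Tbx21 alone was called, at an adjusted p of 0.0376, against 2.37% of all genes with a count. In these fits, and in the main one, the direction of Tbx21, Zbtb32, Spn, Arid3a and Bhlhe40 was the same.

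**Figure D4:**
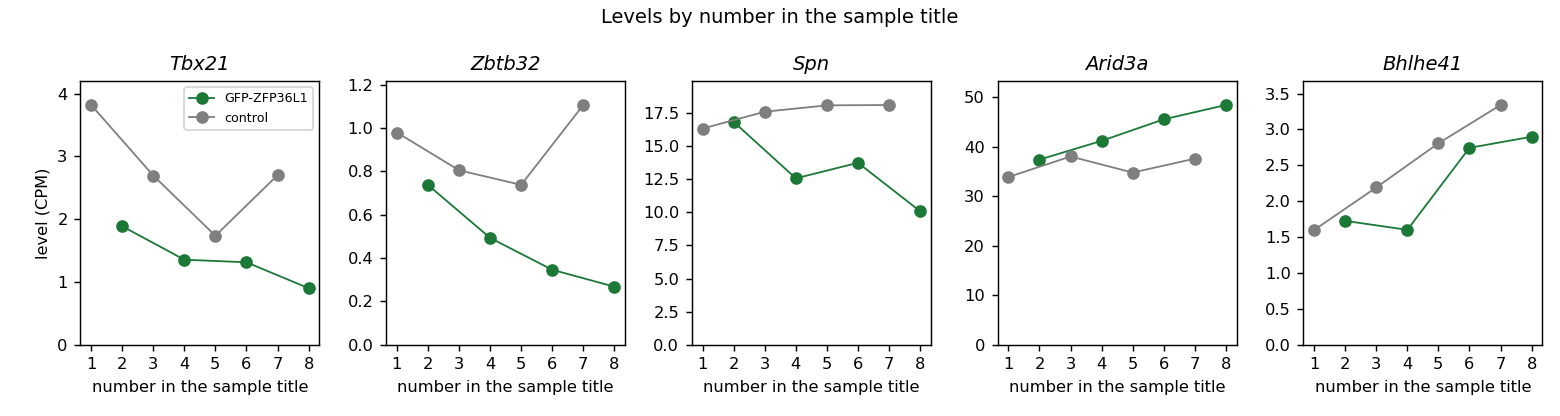
Level in CPM (y axis) of 5 genes against the number in the sample title (x axis), with GFP-ZFP36L1 libraries in green and control libraries in grey. Bhlhe41 is higher in the libraries numbered 5 to 8 than in those numbered 1 to 4 in both groups, and library 8, which is GFP-ZFP36L1 replicate 4, has the lowest level of Tbx21, Zbtb32 and Spn and the highest of Arid3a.

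**Figure D5:**
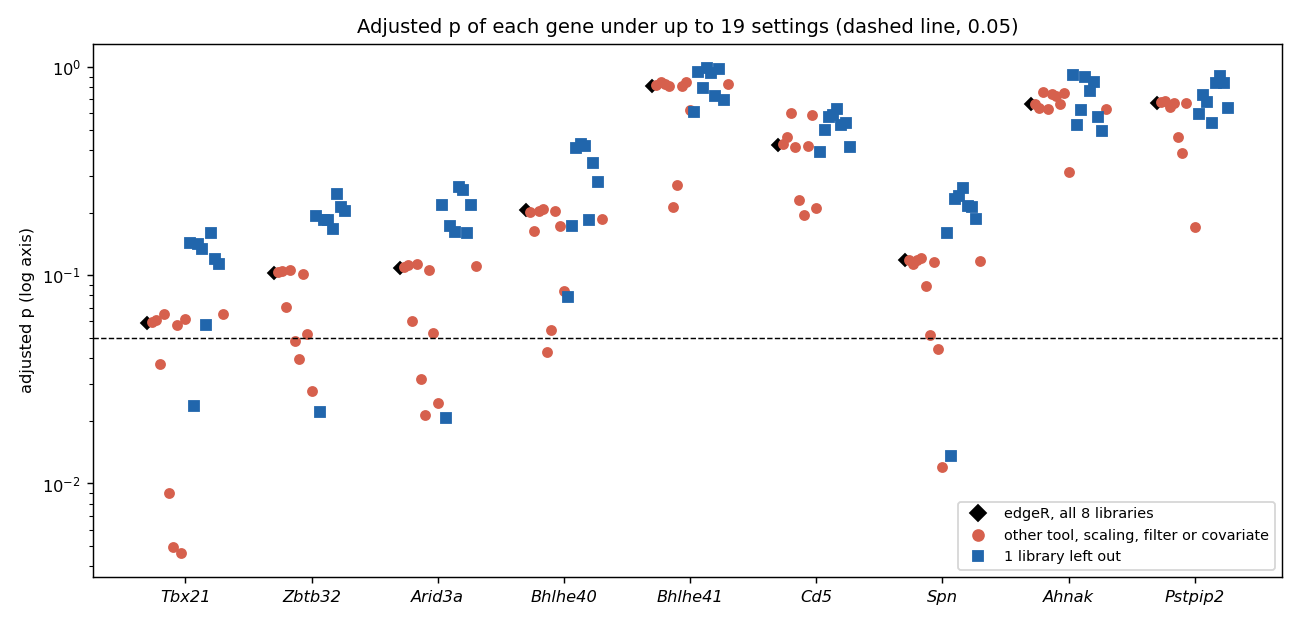
Adjusted p (log axis) of each of the 9 tested genes under up to 19 settings (Cd5, Zbtb32 and Pstpip2 were not tested with the filter of 1 CPM in 4 libraries, and Pstpip2 has no adjusted p in DESeq2): a black diamond for edgeR on all 8 libraries, red circles for another tool, scaling, filter or covariate, and blue squares for 1 library left out. Each black diamond lies above the dashed line at 0.05, points below it belong to Tbx21, Zbtb32, Arid3a, Bhlhe40 and Spn, and the square below the line in 4 of these is the fit without GFP-ZFP36L1 replicate 1.

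Across the 8 libraries, the gene whose log2 CPM followed each of the 9 most closely was found among 8845 or 8846 others of at least 5 CPM. The nearest genes were Zfas1 for Tbx21 (Pearson r = 0.984), Mknk2 for Zbtb32 (0.985), Kif3b for Arid3a (0.984), Ifi47 for Bhlhe40 (0.969) and Rgp1 for Bhlhe41 (0.981). For Spn, Cd5, Ahnak and Pstpip2 they were Fmnl1 (0.991), Brd8 (0.964), Mmgt1 (0.945) and Arid4b (0.956). These values are the highest of many over 8 libraries that share group and title order, and are given as a description.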

How the data were processed

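The follicular B cells were sorted by 4 markers (B220, CD23, CD21, CD93) and the mRNA kit was stranded, per the labels. The submitters' processing notes name GRCm38 as the build, TopHat2 2.0.12 and HTSeq, with Trim Galore and DESeq2 1.10.1. How strand was set in counting is not stated. Every test used the raw counts per gene that the authors deposited. A normalized signal was deposited too, which was the count divided by 1 constant per library (relative departure of at most 5.7e-10) and served for that check only. The authors' deposited table of results holds log2 fold changes, signed fold changes, a score (the Wald statistic), the error and p-values, of which the log2 fold change and adjusted p are quoted.

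The tests ran in edgeR 4.0.16 (R 4.3.3). Genes passing filterByExpr were scaled by TMM and compared by the quasi-likelihood test with robust dispersion, group as the sole term, and Benjamini-Hochberg adjustment over all 13035 tested genes. Fold changes are GFP-ZFP36L1 over control, and errors of log2 values come from the F statistic. The fit was tested on simulated data. At true folds of 1.25, 1.5 and 2 it called 47.8%, 75% and 87.5% of the changed genes, with 5 false calls of unchanged genes. A change of 1.25 fold was therefore often missed. Replicate numbers follow accession order and pair nothing. Alternatives were DESeq2 1.42.0, limma 3.58.1 (voom, quality weights), upper-quartile or RLE factors, a minimum of 1 CPM in 4 libraries or no filter, a prior that was not robust, the title number or 1 surrogate variable (sva 3.50.0) as a term, the table without immunoglobulin segments, and 8 fits with 1 library left out. The members and lists were chosen with earlier results of these data known. Named genes were the 10 members, the called and smallest-p genes of each related list, the gene closest to each member, and the checks of the labels. Tlr7, Itgax, Btk, Cd3e, Jchain and Adgre1 were chosen after their values were seen. Gene names matched 42462 identifiers. Lilrb4a was not matched by symbol.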

Additional observations from a re-analysis of the deposited data

Results flagged for a closer look

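In 6 of 70 sets of 4 libraries examined (named genes by group), 1 library stood apart from the other 3 by Dixon's criterion at the 95% level; chance marks about 1 in 20 such sets. Control replicate 1 did so for 4 genes. Among the members, it had 29.5 CPM of Bhlhe40, against 24.0 to 24.3 CPM in the other controls. It had 25.5 CPM of Il5ra, against 34.0 to 34.7 CPM, 54.7 CPM of Ifi47, the gene nearest to Bhlhe40, against 30.2 to 32.996 CPM, and 599 CPM of Zfp36l1, against 523 to 535 CPM. GFP-ZFP36L1 replicate 2 had 0.164 CPM of Ctla4, from 8 counts, against 0.0230 to 0.0244 CPM in the other GFP-ZFP36L1 libraries, each from 1 count. Control replicate 3 had 39.7 CPM of Arntl, against 37.7 to 37.8 CPM in the other controls.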

How the results depend on the processing

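The number of members called, 0 of 9 with edgeR on all 8 libraries, became 4 with the title number in the fit, 3 with 1 surrogate variable, 3 with limma voom, 2 with DESeq2 and 1 with no filter, and ranged from 0 to 4 with 1 library left out. Over all genes 407 were called, against 1030, 1243, 1053 and 875 with the first 4 of these settings, and 79 to 948 with 1 library left out. The lists of related genes held 8 called genes, against 13 with the title number, 14 with the surrogate variable, 15 with limma voom, and 2 to 11 with 1 library left out. Of 159 values of the members' log2 fold changes under the alternatives, 140 kept direction and side of the threshold, 17 passed it, 1 (Pstpip2 in DESeq2) had no adjusted p and kept its direction, and 1 changed sign, that of Bhlhe41, at 0.023 without control replicate 4 (range with 1 library left out, -0.31 to 0.023). Of 448 for the other named genes, 396 kept both, 40 lost the call, 11 gained it and 1 changed sign, that of Rgp1, at 0.0038 without GFP-ZFP36L1 replicate 2 (range, -0.10 to 0.0038). The cause was not tested. Cd5, Zbtb32, Pstpip2 and Ctla4 rest on at most 45 counts per library, which limits their precision, and intervals of the 3-count kind cover counting error only. With at least 1 CPM in 4 libraries, Cd5, Zbtb32 and Pstpip2 were not tested. No paired analysis was possible because the labels give no replicate number that the groups share.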
